A study of Triticum polonicum with 8 samples.

Results

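Roots of dwarf Polish wheat grown on raised calcium and potassium nitrate, without added metal, were compared with roots grown on the basal supply. The comparison rests on 2 of the 8 libraries of the study, chosen by their labels alone: N2, on 8 mM calcium nitrate and 10 mM potassium nitrate, against N0, on 4 mM and 5 mM. Per the labels all plants were of the cultivar dwarf Polish wheat, roots were sampled at 4 weeks of age, and the Ca/K supplies were applied for 1 week on a medium that contained 5 µM Zn. The other 6 libraries, used here only to see what the same genes did elsewhere, held each Ca/K supply with 80 µM CdCl2 (N0_Cd, N2_Cd), with 500 µM Zn (N0_Zn, N2_Zn) or with both (N0_Cd_Zn, N2_Cd_Zn). The title of the series concerns Ca and K as mediators between Cd and Zn, and N2 against N0 is the nutrient change on its own. The design text calls the 2 supplies lack and supply of Ca/K, although the labels give the lower one the concentrations above.

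Several limits of the design apply to every value that follows. Both salts are nitrates, so nitrate went from 13 mM to 26 mM along with calcium and potassium, and the effects of the 3 ions cannot be told apart. The labels state 3 biological replicates per treatment, but the tables hold 1 column per treatment, so every difference is between single libraries, without a replicate check and without a p-value. In whole roots, fewer cells of a type and less RNA per cell cannot be told apart.

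Polish wheat is a tetraploid whose nuclear genome consists of an A and a B subgenome, so most genes exist as an A copy and a B copy on matching chromosomes. Nitrate is both the main nitrogen source of cereal roots and a signal: roots carry transporters for its uptake and enzymes that reduce it, and many of the genes for these respond to nitrate itself. Potassium is the main cation balancing charge and turgor in plant cells and enters roots through channels and carriers. Calcium strengthens cell walls and membranes and acts inside cells as a messenger read by calcium-binding proteins. The files give gene identifiers with neither names nor functions, so no gene of these pathways, and no marker of root tissue, could be looked up, and the genes are described by level, length, chromosome arm and behaviour.

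The N0 library held 24184415 counts over 77001 genes with at least 1 read, and the N2 library 24930243 counts over 80499 genes, the most of the 8 libraries. Library totals of the study ran from 20000875 to 25241789. Counts were more concentrated in N0, where the 100 highest genes held 11.3% of all counts, than in N2, where they held 8.32%, the lowest share of the 8 libraries; the other 6 lay between 8.66% and 13.1%. Values are given as CPM, the count divided by the library total in units of 1000000 counts and by a TMM factor, which sets a typical gene, not the library total, equal between libraries; the TMM factor was 0.956 in N0 and 1.14 in N2. With plain CPM the median log2 ratio of all genes moved up by 0.28, so every direction reported is relative to the TMM reference. FPKM, used where genes are ranked against each other, also divides by gene length.

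Differences between the 2 libraries were widespread but mostly of moderate size. Of 33354 genes with at least 5 CPM in N0 or N2, 4574 (13.7%) were 2-fold or more higher in N2 and 5262 (15.8%) lower. At 4-fold there were 1540 genes higher and 1758 lower, at 8-fold 512 and 615, and at 16-fold 197 and 261. The middle of the distribution was narrow: 49.5% of the genes lay within 1.5-fold, and the quartiles of the log2 ratio were -0.64 and 0.53 around a median of -0.07. For a gene at the minimum of 5 CPM, which corresponds to 115 counts in N0 and 141 in N2, counting error alone is not negligible. The exact 95% counting interval lay wholly beyond 2-fold for 3348 of the 4574 genes higher and 3957 of the 5262 lower. These intervals cover counting error only. The balance between the directions rested on the scaling: median-of-ratios size factors gave 4454 higher and 5341 lower, but plain CPM gave 6728 and 3834, log2(FPKM + 1) gave 4616 and 3269, and log2(FPKM + 0.1) gave 6150 and 3845. It also turned with the level of the genes, since a minimum of 20 CPM gave 1548 higher and 2746 lower, a minimum of 1 CPM 9369 and 7846, and no minimum 15401 and 10592.

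**Figure D1:**
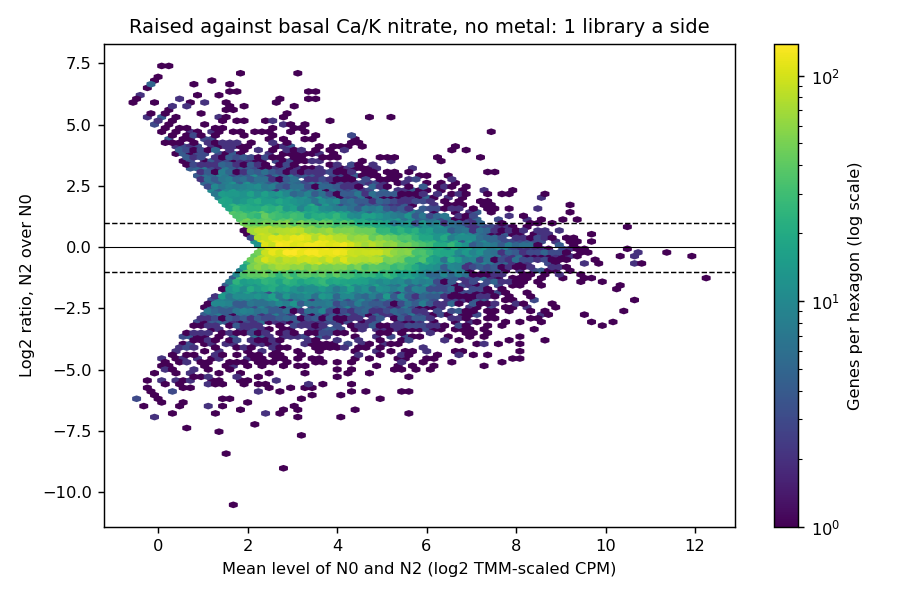
Log2 ratio of N2 over N0 (y axis) against the mean log2 CPM of the 2 libraries (x axis) for the 33354 genes compared, with colour for the number of genes per hexagon and dashed lines at 2-fold. Most genes lie near 0, and among genes of high level the cloud reaches further below the lower line than above the upper one.

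On the CPM scale, genes with the most reads were the ones most often lower at raised Ca/K. Among the 86 genes with a mean over 500 CPM in the 2 libraries, 33 were 2-fold or more lower in N2 and 5 higher, a median log2 ratio of -0.58. The share of lower genes was smaller at each lower level: 27.9% lower and 8.66% higher between 200 and 500 CPM, 22.9% and 8.93% between 50 and 100 CPM, and 12.9% and 10.98% between 10 and 20 CPM. Between 5 and 10 CPM the balance had turned, with 12.7% lower and 15.1% higher. Genes with a mean under 5 CPM entered only because 1 of the 2 libraries reached that level, so their shares (24.6% lower, 35.4% higher) are not comparable with the rest. With plain CPM the genes over 500 CPM still had more members lower (27) than higher (6), and those between 20 and 50 CPM turned to 968 higher and 832 lower.

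Per gene length the most abundant genes were not the ones most often lower. By the mean FPKM of the 2 libraries, 20.5% of the genes over 200 FPKM were lower and 8.05% higher, against 23.5% and 10.9% between 100 and 200 FPKM, 26.0% and 10.8% between 50 and 100 FPKM, and 13.7% and 11.2% between 5 and 10 FPKM. Median log2 ratios were -0.22 over 200 FPKM and -0.04 between 100 and 200 FPKM. Of the 100 genes with the highest FPKM in N0, 49 were 2-fold or more lower in N2 and 1 was higher, and together they went from 10.3% of the counts in N0 to 5.90% in N2. Of the 100 highest in N2, 19 were higher and 10 lower. A list chosen for a high value in 1 library leans toward lower values in the other, so the lists are given side by side: of the 1000 highest in N0, 407 were lower and 22 higher, and of the 1000 highest in N2, 192 were higher and 65 lower.

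Short genes were more often lower in N2 than higher, and long genes more often higher than lower. Of 3677 genes up to 1000 bp, 23.8% were 2-fold or more lower and 14.7% higher, whereas of 5799 genes over 3000 bp, 7.09% were lower and 15.6% higher. The median log2 ratio, taken relative to that of all genes, went from -0.15 up to 1000 bp and -0.17 between 1000 and 1500 bp to 0.06 between 2000 and 3000 bp and 0.24 over 3000 bp. With plain CPM the direction of the short genes was lost, with 676 higher and 706 lower up to 1000 bp and 1133 higher and 1122 lower between 1000 and 1500 bp, against 1317 higher and 268 lower over 3000 bp. Among genes between 10 and 50 CPM the medians relative to all genes were -0.24 between 1000 and 1500 bp and 0.18 over 3000 bp. Over 50 CPM the order was not steady, with -0.25 between 1000 and 1500 bp, -0.37 between 1500 and 2000 bp and 0.06 over 3000 bp. The read-weighted mean gene length was 2030 bp in N0 and 2114 bp in N2, the highest of the 8 libraries, which otherwise reached 2083 bp at most. The Ca/K pair with Cd had a like but flatter order (-0.08 up to 1000 bp, 0.13 over 3000 bp, relative to its own median). The pair with Zn lacked this order (0.11 and 0.02), and in the pair with both metals long genes were the lower ones (0.08 and -0.20). The part of gene length in the other results was not tested.

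**Figure D2:**
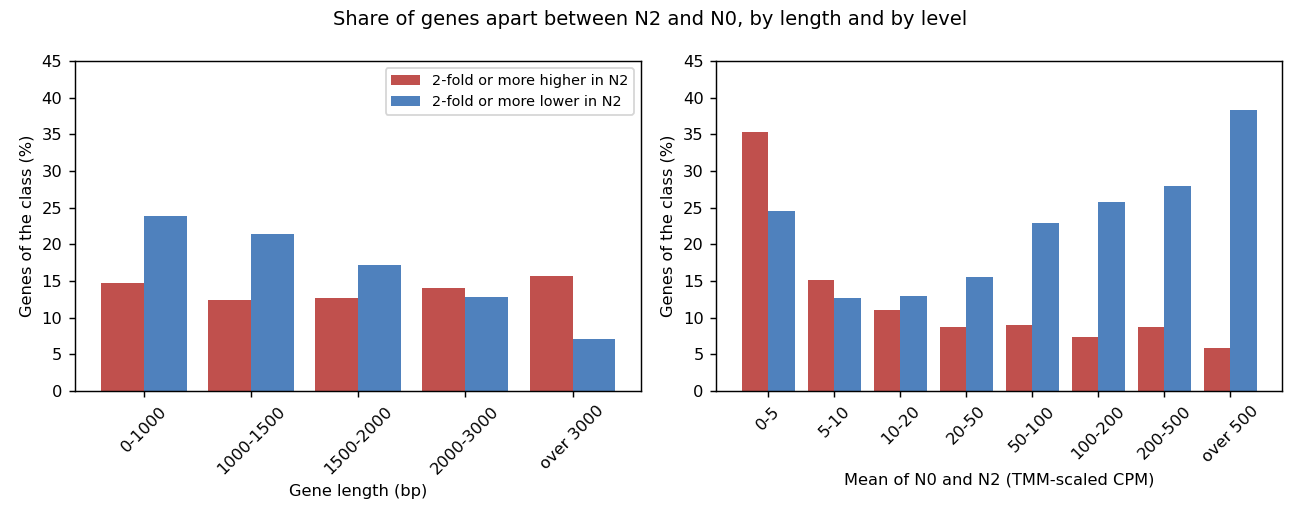
Percentage of genes 2-fold or more higher (red) or lower (blue) in N2 than in N0, by gene length in bp (left) and by the mean CPM of N0 and N2 (right). Lower genes go from 23.8% of the shortest to 7.09% of the longest class and reach 38.4% over 500 CPM.

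The A and B subgenomes differed little in how many genes were apart. Of 13534 genes with an A code, 14.4% were higher in N2 and 15.4% lower, with a median log2 ratio of -0.04; of 13894 genes with a B code, 14.2% were higher and 15.1% lower, with the same median. With plain CPM over the same genes the balance turned in each, to 2641 higher and 1553 lower of the A genes and 2702 higher and 1534 lower of the B genes. The share of all reads on A genes was 43.3% in N0 and 43.0% in N2, and that on B genes 43.0% and 43.2%. Loci with a serial number and no arm code stood apart from both subgenomes: 18.8% of 3881 were lower and 8.63% higher. With plain CPM this balance was lost: 533 were lower and 493 higher among the same loci, and 519 lower and 549 higher where the minimum of 5 CPM was also set on plain CPM. Their median length was 1735 bp against 1929 bp for all other genes, and in each of the 5 length classes more of them were lower than higher on the TMM scale, for example 16.8% against 8.07% between 1500 and 2000 bp.

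The genes apart were spread over all arms of the A and B subgenomes. Over the 28 arms or chromosomes with at least 100 genes compared, the share of genes higher in N2 ran from 12.5% on 6BL to 16.6% on 1AS. The share lower ran from 10.5% on 5AS to 18.9% on 5DL, and was 17.9% on 6AL, the highest with an A or B code. Medians stayed between -0.12 on 7AL and 0.05 on 2BS. In 20 of the 28 more genes were lower than higher, a count that fell to 0 with plain CPM. Matching arms of the A and B subgenomes had only loosely like shares: over 13 pairs, the share higher correlated at r = 0.33 (rho = 0.45) and the share lower at r = 0.27 (rho = 0.35), given as a description over arms that share the 2 libraries. The share higher was nearly equal on 7AS and 7BS (13.9% each) and on 3A and 3B (13.97% and 14.04%), and differed most between 1AS (16.6%) and 1BS (13.2%). Short arms of group 6 differed most in the share lower, with 13.6% on 6AS and 17.8% on 6BS.

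The identifiers name gene models of bread wheat, so some carry a D code although Polish wheat has no D subgenome. D genes held 1.91% of the counts in N0 and 2.20% in N2, and 858 of them were compared, with 18.2% higher and 18.9% lower. The arm 6DL was singled out after its values were seen. On 6DL, 24 of 65 genes (36.9%) were higher in N2 and 8 lower. The median log2 ratio there was 0.77, which was 0.76 with size factors. On the other D arms the share higher ran from 10% on 3DL to 30% on 1DL. On 1DL, 24 of 80 genes were higher and 16 lower, with a median log2 ratio of 0.05. The 24 genes of 6DL lay on 21 scaffolds, and their median level was 2.06 CPM in N0 and 7.83 CPM in N2. In the 6 metal libraries it lay between 0.445 CPM in N0_Cd_Zn and 3.51 CPM in N0_Cd, and N0 lay within the range of these. The 24 genes were chosen for being higher in N2 than in N0, and each reached 5 CPM in N2, so the high level of N2 among the libraries follows largely from the choice. Of the 24 genes, 10 were 2-fold or more above all 7 other libraries in N2. These 10 made up most of the 15 D genes for which N2 stood above all others. Of any code, 239 genes did so, all of them among the 4574 genes higher in N2. Whether the N2 plants carried the same chromosomes as the plants of the other libraries was not tested, and every N2 against N0 value takes this as given.

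Neighbouring genes were more often apart in the same direction than pairs of genes at large. Scaffold and order are written in the identifiers, and 7949 pairs of compared genes followed each other on a scaffold. In 795 of them both genes were 2-fold or more apart between N2 and N0; in 529 of these (66.5%) both went the same way, 236 pairs higher and 293 lower, and in 266 they went opposite ways. Among all possible pairs of such genes, wherever they lie, 50.05% went the same way. The log2 ratios of neighbours correlated at r = 0.17 over the 7949 pairs, as a description over genes of the same 2 libraries. Near-identical tandem copies and overlapping genes can share reads, and their part in this was not tested.

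Of 100 scaffolds with 3 or more genes apart, 16 had all of them higher, 35 all lower and 49 both directions. The like shares for genes taken from anywhere, and these counts with plain CPM, were not computed, so the split is not read further. The 4 scaffolds with 5 or more, all named here by arm, included 1 on 2BS with 5 of 5 genes higher. Its genes had a median of 2.47 CPM in N0 and 15.3 CPM in N2, while the 6 metal libraries lay between 1.71 and 10.2 CPM. A scaffold on 7BL had 5 of 5 genes lower, from a median of 10.8 CPM to 0.849 CPM. These 5 genes were again far apart with Cd (13.5 CPM in N0_Cd, 0.693 in N2_Cd) and with Zn (36.7 CPM in N0_Zn, 1.86 in N2_Zn), but not with both metals (5.47 and 5.07 CPM). On 6BS, 5 of 6 genes of a scaffold were lower, and the median of all 6 went from 141 CPM to 44.3 CPM. On 6AS a scaffold had 3 genes lower and 2 higher.

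The largest ratio toward lower values belonged to Novel06751, a locus of 3532 bp without an arm code, with 2939 counts in N0 and 0 in N2, at least 1200-fold lower against a floor of 3 counts in N2. Its level was 127 CPM in N0, 73.6 CPM in N0_Cd, 72.4 CPM in N0_Zn and 90.3 CPM in N0_Cd_Zn, and at raised Ca/K it was 0, 14.4, 2.51 and 53.7 CPM in the same order of metals. All 4 basal libraries lay above all 4 raised ones, with the narrowest gap under both metals. TRIAE_CS42_3AL_TGACv1_194953_AA0642620, on chromosome arm 3AL, came next with 153 CPM in N0 and 0.212 CPM in N2, 723-fold lower (95% counting interval 332 to 1972). It was at 62.8 CPM in N0_Cd and 149 CPM in N0_Zn, against 0.739 CPM in N2_Cd and 0.930 CPM in N2_Zn. The basal library with both metals broke the order, since N0_Cd_Zn held 1.11 CPM and N2_Cd_Zn 1.48 CPM.

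The largest ratio toward higher values among genes with at least 20 CPM in N0 or N2 belonged to Novel02379. This locus of 1764 bp without an arm code had 0.217 CPM in N0 and 43.2 CPM in N2, 199-fold higher (85.2 to 615). It did not keep that direction with metal: it was at 13.9 CPM in N0_Cd and 4.66 CPM in N2_Cd, and at 300.06 CPM in N0_Zn and 11.2 CPM in N2_Zn. With both metals it had 3 counts in N0_Cd_Zn and 0 in N2_Cd_Zn, at the floor in each. TRIAE_CS42_4AL_TGACv1_291993_AA0997320, on 4AL, was at 0.693 CPM in N0 and 102 CPM in N2, 148-fold higher (90.7 to 259). It was higher at raised Ca/K under each metal too, with 1.35 against 13.9 CPM under Cd, 13.1 against 69.1 CPM under Zn and 2.71 against 52.1 CPM under both. A gene on 4BL had a like profile: 1.17 CPM in N0 and 98.3 CPM in N2, then 1.84 and 13.5 CPM under Cd, 12.1 and 59.6 CPM under Zn, and 2.05 and 39.2 CPM under both metals.

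Measured as a difference in CPM, the largest fall was that of a gene on 5AS of 864 bp. It was at 7319 CPM in N0 and 3260 CPM in N2, a log2 ratio of -1.17. It was lower at raised Ca/K also with Cd (7509 against 2957 CPM) and with Zn (9926 against 3821 CPM), and higher with both metals (3691 against 4974 CPM). Next came a gene on 4BS, at 3243 CPM in N0 and 379 CPM in N2. It lay between 462 and 1161 CPM in the 3 other libraries at raised Ca/K. With metal at basal Ca/K it was at 1285 CPM in N0_Cd, 3972 CPM in N0_Zn and 990 CPM in N0_Cd_Zn. The last lay below the 1161 CPM of N2_Cd_Zn. The largest gain was that of a gene without a placed arm (code U), at 34.7 CPM in N0 and 931 CPM in N2, 26.8-fold higher (25.0 to 28.8). It was at 280.4 CPM in N0_Cd and 586 CPM in N2_Cd, but at 1.86 CPM or less in all 4 libraries with Zn. A gene on 2BL came next, at 1040 CPM in N0 and 1845 CPM in N2, only 1.77-fold higher, and it was higher at raised Ca/K in all 4 pairs, by log2 ratios of 0.83, 0.86, 0.35 and 0.77.

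**Figure D3:**
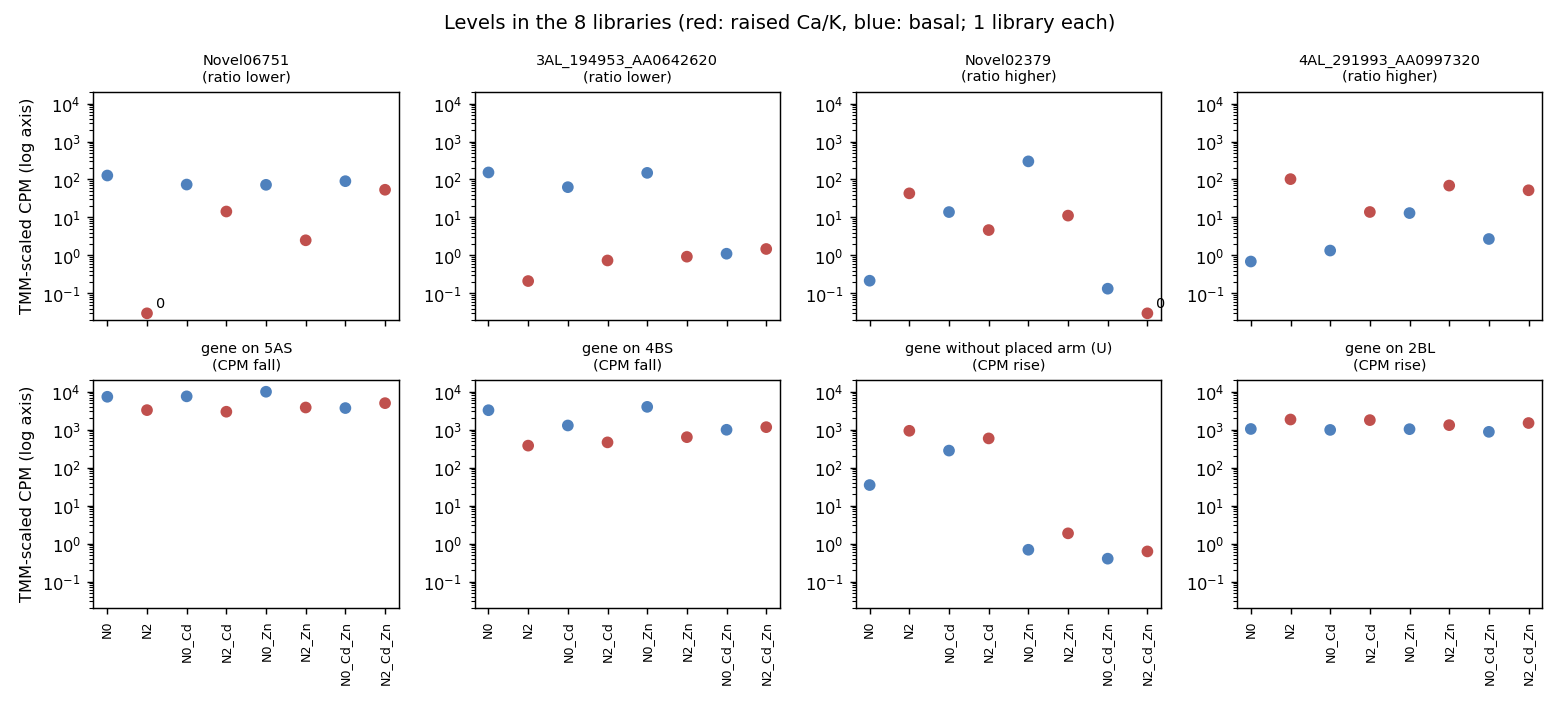
TMM-scaled CPM on a log axis in the 8 libraries. The top row holds the 2 genes with the largest and the 2 with the smallest ratio of N2 over N0. Ratios were ranked among genes with at least 20 CPM in N0 or N2. The bottom row holds the 2 genes with the largest fall and the 2 with the largest gain in CPM. Red points are raised and blue points basal Ca/K, 1 library each. A count of 0 is drawn near the foot of the axis and marked 0. Novel06751 and the 4AL gene keep their order in all 4 Ca/K pairs, Novel02379 turns in the pairs with Cd and with Zn.

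Genes with the smallest and the largest ratios were listed only among those with at least 20 CPM in N0 or N2. Most of the listed genes with the smallest ratios were again low at raised Ca/K with a single metal. Of the 20 genes listed with the smallest ratios of N2 over N0, 19 were again 2-fold or more lower at raised Ca/K with Cd. By the same measure all 20 were lower with Zn, and with both metals 8 were lower and 1 higher. Over all genes compared, 11.2% were lower with Cd, 19.4% with Zn and 16.3% with both. A gene on 1BS in this list was the most abundant of them in N0: it was at 535 CPM in N0 and 4.74 CPM in N2, at 127 and 5.86 CPM in the Cd pair and at 586 and 5.91 CPM in the Zn pair. Among the 20 genes listed with the largest ratios the behaviour was more mixed. With Cd 14 were higher again and 3 lower, with Zn 17 and 1, and with both metals 12 and 5, while 8.51%, 20.9% and 17.6% of all genes compared were higher in these pairs. A gene on 1AS in this list, at 1.21 CPM in N0 and 86.2 CPM in N2, had 0 counts in N0_Cd, N2_Cd and N0_Zn, and was at 0.372 CPM in N2_Zn, 9.03 CPM in N0_Cd_Zn and 0.0956 CPM in N2_Cd_Zn. A gene on 7BS, at 1.39 and 96.2 CPM, was high in N0_Cd as in N2_Cd (44.7 and 43.8 CPM) and at 1.10 CPM or less in the 4 libraries with Zn.

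Few genes were read in 1 library and nearly absent in the other. Genes with at least 5 CPM in N2 and at most 3 counts in N0 numbered 44. Of these, 21 had an A code, 15 a B code and 5 a serial number only. Genes with at least 5 CPM in N0 and at most 3 counts in N2 numbered 33. Of these, 12 had an A code, 9 a B code and 12 a serial number only. Of all 33354 genes compared, 13534 had an A code, 13894 a B code and 3881 a serial number only. The 44 genes had medians of 7.78 CPM in N2 and between 0.0687 and 1.41 CPM in the other libraries; the contrast of N2 with N0 follows from the choice, and these genes entered only through N2. The 33 genes, which entered only through N0, had a median of 8.49 CPM in N0. With metal at basal Ca/K it was 0.940 CPM in N0_Cd, 4.40 CPM in N0_Zn and 1.38 CPM in N0_Cd_Zn. With metal at raised Ca/K it was 0.139 CPM in N2_Cd, 0.279 CPM in N2_Zn and 0.860 CPM in N2_Cd_Zn.

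In reads, the genes apart between N2 and N0 made up a large part of the root transcriptome. The 4574 genes higher in N2 held 3.74% of all counts in N0 and 14.8% in N2, and the 5262 genes lower held 29.97% in N0 and 9.14% in N2; these 4 values follow from how the genes were chosen. The 6 metal libraries played no part in that choice. In them the genes higher held 7.06% of counts in N0_Cd and 13.1% in N2_Cd, 3.63% in N0_Zn and 14.0% in N2_Zn, and 8.51% in N0_Cd_Zn and 12.7% in N2_Cd_Zn. The genes lower held 21.2% in N0_Cd and 10.7% in N2_Cd, 33.6% in N0_Zn and 11.1% in N2_Zn, and 16.2% in N0_Cd_Zn and 14.3% in N2_Cd_Zn. In each of the 3 metal pairs, both sums went the way they went without metal.

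**Figure D4:**
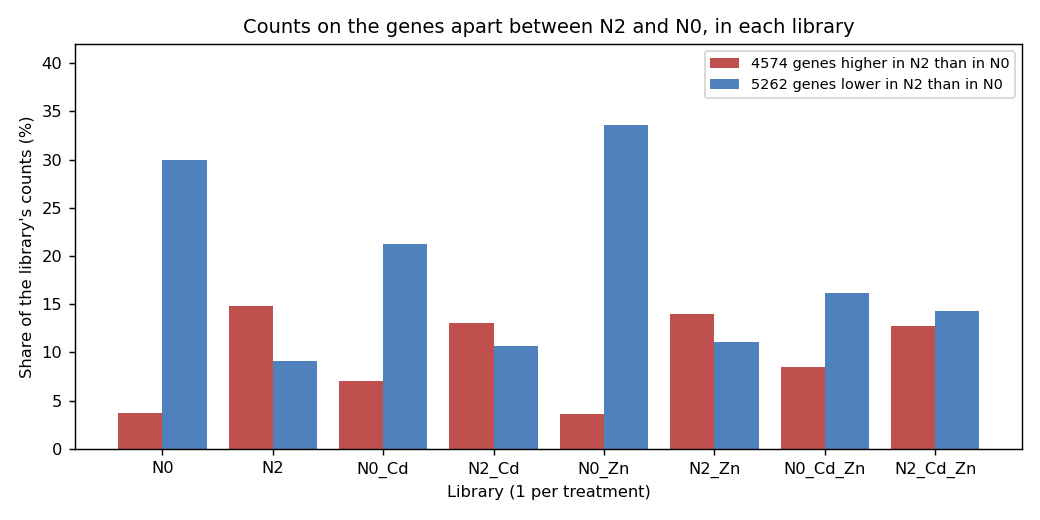
Share of each library's counts in percent (y axis) held by the 4574 genes higher (red) and the 5262 genes lower (blue) in N2 than in N0, for the 8 libraries on the x axis. N0_Zn resembles N0 (3.63% and 33.6%), the N2 libraries lie between 12.7% and 14.8% for the genes higher, and N0_Cd and N0_Cd_Zn lie between N0 and N2.

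Placed gene by gene on a scale from 0 at N0 to 1 at N2, the 3 metal libraries at basal Ca/K lay nearer to N0 than the 3 at raised Ca/K. For the genes higher in N2 the median place was -0.24 for N0_Zn, 0.37 for N0_Cd and 0.53 for N0_Cd_Zn, and 0.58 for N2_Cd_Zn, 0.87 for N2_Zn and 0.90 for N2_Cd. For the genes lower in N2 it was -0.08, 0.34 and 0.57, and 0.65, 0.87 and 0.92 in the same order of libraries. Since the genes were chosen for N0 and N2 being far apart, other libraries tend to fall between them, and the place is a description. N0_Zn lay beyond N0, with 86.4% of the genes lower in N2 nearer to N0 than to N2 or above N0. The pair with both metals lay close together near the middle.

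The Ca/K difference recurred in the pairs with a single metal, which share no library with N0 and N2. Of the 4574 genes higher in N2, 1764 (38.6%) were 2-fold or more higher in N2_Cd than in N0_Cd and 207 (4.53%) lower, against 8.51% and 11.2% of all 33354 genes compared. With Zn, 3248 (71.0%) were higher and 120 (2.62%) lower, against 20.9% and 19.4% of all genes. Of the 5262 genes lower in N2, 2494 (47.4%) were lower and 116 (2.20%) higher with Cd, and 3847 (73.1%) were lower and 173 (3.29%) higher with Zn. The median log2 ratio of the genes higher was 0.80 with Cd and 1.74 with Zn, and that of the genes lower -0.95 and -1.58, with all genes at -0.02 and -0.08. Genes at large also stood further apart with Zn: among the genes compared within each pair, 37.0% lay within 1.5-fold with Zn and 58.8% with Cd.

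With both metals the genes went either way. Of the genes higher in N2, 1664 (36.4%) were higher in N2_Cd_Zn than in N0_Cd_Zn but 1345 (29.4%) were lower, against 17.6% and 16.3% of all genes. Of the genes lower in N2, 1142 (21.7%) were lower and 892 (17.0%) higher. Medians were 0.08 and -0.14. Across the 33354 genes, the log2 ratios without metal correlated with those under Cd at r = 0.63 (rho = 0.64), with those under Zn at r = 0.70 (rho = 0.74) and with those under both metals at r = 0.10 (rho = 0.03), given as a description over genes, which are not independent. The N0_Cd_Zn library stood apart in this study, with 1041 genes 2-fold or more above all 7 other libraries and 647 below all of them, against 168 and 44 in N0 and 239 and 71 in N2. N0_Zn also stood apart, with 591 genes above and 859 below all others, and N2_Cd had 690 above and 123 below. The values for the pair with both metals rest on N0_Cd_Zn, those for the Zn pair on N0_Zn and those for the Cd pair on N2_Cd, and with 1 library per treatment none of them can be left out.

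**Figure D5:**
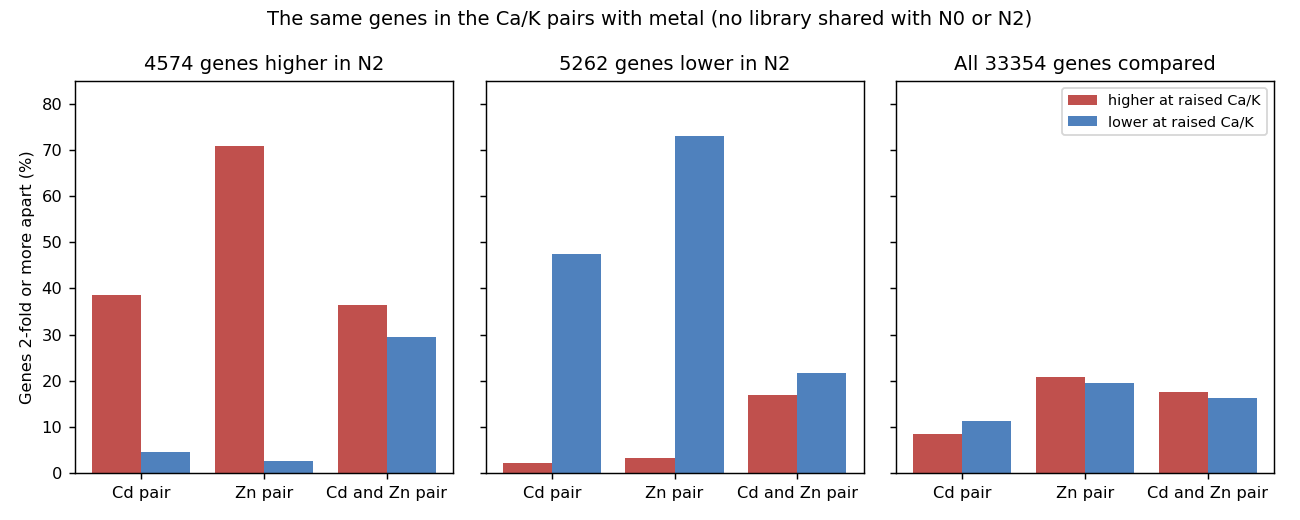
Percentage of genes 2-fold or more higher (red) or lower (blue) at raised Ca/K in the pairs under Cd, under Zn and under both metals, for the genes higher in N2 than in N0 (left), those lower (middle) and all genes compared (right). The direction found without metal prevails in the Cd and Zn pairs (71.0% and 73.1% with Zn), while with both metals the 2 directions are close.

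Genes further apart without metal recurred more often. Among genes lower in N2, the share lower with Cd went from 34.3% of those 2- to 4-fold apart to 70.3% at 4- to 8-fold, 78.8% at 8- to 16-fold and 80.1% at 16-fold or more; with Zn the shares were 65.8%, 85.1%, 92.7% and 92.3%. Among genes higher in N2 the shares were 30.5%, 54.3%, 52.4% and 58.9% with Cd, and 68.4%, 75.2%, 79.0% and 76.6% with Zn, with little change beyond 4-fold. With both metals, 51.0% of the genes 16-fold or more lower were lower again and 13.0% higher. For genes within 1.5-fold between N2 and N0, 2.99% were higher and 2.98% lower with Cd, and 11.7% and 6.56% with Zn.

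Recurrence differed little between the subgenomes. Of the genes higher in N2, 39.2% of those with an A code and 39.2% of those with a B code were higher with Cd, and 73.3% and 72.7% with Zn. Loci with a serial number only recurred less often when higher (33.7% with Cd, 54.3% with Zn) and about as often when lower (52.1% and 75.6%). Genes of all lengths recurred: with Zn, between 67.4% and 73.0% of the genes higher and between 71.0% and 75.04% of those lower did so in the 5 length classes. Among all genes compared within the Zn pair, between 19.8% and 28.5% of a length class were higher and between 15.2% and 24.5% lower. With Cd the shares for genes lower were 54.9% up to 1000 bp and 43.6% over 3000 bp. Among all genes compared within the Cd pair, 17.3% up to 1000 bp and 6.14% over 3000 bp were lower.

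Taking the pairs jointly, 1544 of the genes higher in N2 (33.8%) were higher with Cd and with Zn. Of those lower, 2253 (42.8%) were lower with each. The like shares of all genes compared were not computed, nor were the splits of the next sentence. Over all genes compared, the log2 ratios under Cd and under Zn correlated with each other at r = 0.70. Of the 1544 genes, 654 were higher with both metals too and 429 were turned there; of the 2253 genes, 573 were lower again and 345 turned. Genes higher in all 3 metal pairs were thus 14.3% of the genes higher in N2 and 2.65% of all genes compared, and genes lower in all 3 were 10.9% of the genes lower in N2 and 1.98% of all. By comparison, 645 of the genes higher in N2 (14.1%) and 905 of those lower (17.2%) reached 2-fold in that direction in no pair with metal, as did 65.8% and 65.7% of all genes compared. Within 1.5-fold in all 3 pairs with metal lay 84 of the 4574 genes higher and 100 of the 5262 genes lower. The like share of all genes compared was not computed, so these counts are not read further.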

How the data were processed

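Root RNA of 8 treatments was made into Illumina TruSeq libraries, per the labels' protocols (the design text states SMRT-seq). Bowtie2 2.0.6 and TopHat2 2.0.12 are named per the submitters' processing notes; for the counting tool, its use of strand and of shared reads, the genome build and any pooling of replicates, nothing was found in the sources used here. Deposited read counts are whole numbers per gene for 124856 genes, 1 column per treatment, and each column of both tables was matched by name. FPKM values in the authors' deposited table equal count over length and total (relative deviation at most 2.3e-14) and served for gene lengths and as an alternative scale.

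TMM factors came from edgeR 4.0.16 in R 4.3.3 on 64580 genes kept by filterByExpr (minimum count 10). Log2 ratios of CPM carry a prior count of 2; folds printed with intervals are plain ratios of scaled counts. Genes with at least 5 CPM in N0 or N2 were compared and called at 2-fold; no test was run. Ratio and interval code was tested on simulated data. Intervals are exact (Clopper-Pearson, 95%) splits of 2 counts. The floor of 3 counts was 0.130 CPM in N0 and 0.106 in N2. Named genes are the 2 extremes each way by ratio (at least 20 CPM) and by CPM difference; the latter, and genes ranked below, are given by arm, since identifiers lack names. Lists by gene function were not used, as no annotation was given. Alternatives were DESeq2 1.42.0 size factors, plain CPM, FPKM, other priors and minimum levels. The comparison, lists and classes were chosen with earlier results of these data known; the 6DL arm and the rule for genes nearly absent in 1 library were chosen after their values were seen.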

Additional observations from a re-analysis of the deposited data

Results flagged for a closer look

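Novel02379 had the largest ratio of N2 over N0 among genes with at least 20 CPM in N0 or N2 (log2 ratio 7.16). It went the opposite way in the pairs with Cd and with Zn. Its log2 ratio of raised over basal Ca/K was -1.56 under Cd, -4.73 under Zn and -1.34 under both metals. The last rests on 3 counts against 0, so it is no difference beyond the counting floor. Each pair is 1 library a side, and the difference between pairs was not tested.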

How the results depend on the processing

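No paired analysis was possible because each treatment has 1 library; for the same reason no replicate could be left out. Of the values that answer a comparison, 181 recomputed under the alternatives stayed within the set margins and 37 moved. The margins were wide and do not track the balance between directions. With plain CPM, 6728 genes higher and 3834 lower were within them, although the balance turned from 4574 higher and 5262 lower. The A genes (2813 higher, 1541 lower) and the B genes (2889 higher, 1513 lower) turned likewise. No named gene changed direction. Alternatives that only change which genes are compared could not alter the ratio of a gene. The median log2 ratio of all genes became 0.21 with plain CPM, 0.16 with log2(FPKM + 1), 0.18 with log2(FPKM + 0.1), -0.19 at a minimum of 20 CPM and 0.11 with no minimum. With plain CPM 549 serial-number loci were higher and 519 lower, so that their balance turned. With log2(FPKM + 1), 3269 genes were lower in N2, of which 1331 had an A code, 1308 a B code and 417 a serial number only; of the genes higher, 2.58% were lower under Cd and 0.975% under Zn. At a minimum of 1 CPM, 9369 genes were higher (3688 A, 3792 B, 946 serial number only), 1377 serial-number loci were lower, and 3.42% of the genes lower were higher under Cd. At a minimum of 20 CPM, 1548 genes were higher (706 A, 680 B, 80 serial number only) and 2746 lower (1172 A, 1165 B, 252 serial number only). With no minimum, 15401 genes were higher (5559 A, 5804 B, 1425 serial number only) and 10592 lower (3594 A, 3719 B, 1693 serial number only); of the genes higher 4.91% were lower under Zn, and of the genes lower 5.88% were higher under Cd and 7.10% under Zn. Changed minimums change how many genes are compared; for the other settings the cause was not tested. Under all alternatives run, between 52.7% and 78.2% of the genes higher and between 58.9% and 79.2% of the genes lower kept their direction at 2-fold with Zn, and between 66.2% and 76.5% of neighbouring pairs went the same way. The size of the most extreme ratios depends on the constant added: for Novel06751 the log2 ratio was -10.52 and became -5.15 with log2(FPKM + 1) and -12.52 with a prior count of 0.5. Depth limits values under the floor of 3 counts.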
